A study of Mus musculus with 8 samples.

Results

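The genes described here are the mouse Fc gamma receptors and the molecules through which they signal: Fcgr1, Fcgr3, Fcgr4, Fcgr2b, Fcgrt, Fcer1g and Syk. They were chosen by symbol, and all 7 were found by Ensembl ID among the 55414 genes of the deposited count table and passed the filter on low counts, as did 14655 genes in all. The libraries hold RNA of Kupffer cells, the macrophages that reside in liver sinusoids, sorted by FACS from WT C57BL/6J mice 2 h after caecal ligation and puncture (CLP, a model of sepsis that releases gut bacteria into the abdomen) or after sham surgery (Sham, the control), with 4 libraries in each group. No further allele or agent, and no age, is given for either group. The series was set up to study hemolysis in sepsis, and the comparison asks how the early phase after CLP differs from sham surgery.

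Fc gamma receptors bind the constant part of IgG and let a macrophage take up particles that antibodies have coated. The activating receptors Fcgr1 (CD64, high affinity), Fcgr3 (CD16) and Fcgr4 (CD16-2) have no signalling tail of their own in the mouse and depend on the FcR gamma chain, encoded by Fcer1g, whose ITAM is phosphorylated by Src family kinases and then recruits the kinase Syk. Fcgr2b (CD32) is the inhibitory receptor: its ITIM recruits phosphatases that damp the same signal. Fcgrt, the heavy chain of the neonatal receptor FcRn, works inside cells with B2m and saves IgG and albumin from breakdown. In the liver, Fcgr2b is known as a receptor of sinusoidal endothelial cells, and Kupffer cells clear antibody-coated cells and bacteria from blood.

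Libraries held 23311897 to 28724875 counts over genes, and values are CPM, that is counts relative to the library total, with library totals adjusted by the trimmed mean of M-values (TMM). Kupffer cell markers were abundant in every library: the 8 listed ones summed to 26119 to 33375 CPM in CLP, against 19439 to 25645 CPM in Sham. CLP replicate 1 stood apart, with a correlation of log2 CPM across genes of 0.968 to 0.972 with the other CLP libraries. Summed markers of other cells were 199.6 to 559 CPM in CLP, against 82.4 to 119.99 CPM in Sham for neutrophils, and 119 to 193 CPM in CLP, against 15.1 to 27.8 CPM in Sham for platelets. Most of the neutrophil sum was Csf3r (246 ± 73.6 CPM in CLP, against 99.1 ± 14.9 CPM in Sham), and most of the platelet sum Pf4. Sinusoidal endothelial markers summed to 2221 to 2695 CPM in CLP, against 1493 to 1858 CPM in Sham, most of it Cdh5, and hepatocyte markers to 2778 to 3777 CPM in CLP, against 2005 to 2953 CPM in Sham. Monocyte markers gave 205 to 344 CPM in CLP, against 158 to 264 CPM in Sham, most of it Plac8, and B cell markers 79.8 to 95.1 CPM in CLP, against 66.6 to 78.2 CPM in Sham, most of it Cd22. Dendritic cell markers gave 10.7 to 17.0 CPM in CLP, against 22.4 to 41.2 CPM in Sham, most of it Clec9a. That gene passed as lower (8.91 ± 2.31 CPM in CLP, against 26.7 ± 7.43 CPM in Sham), and the other markers tested, Xcr1 and Zbtb46, did not pass. NK cell markers stayed at or under 4.00 CPM and mast cell and basophil markers at or under 0.229 CPM in every library, and the platelet marker Gp1bb and the basophil markers Mcpt8 and Fcer1a had no count in any.

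Kupffer cells after CLP carried more transcript of the kinase Syk and of the shared FcR gamma chain than cells after sham surgery, while none of the 3 activating receptors passed the test. Syk was 3.20-fold and Fcer1g 1.81-fold higher, and the scarce inhibitory receptor Fcgr2b was 1.86-fold higher. Of the 7 genes, 3 were called higher and 0 lower (edgeR quasi-likelihood test, adjusted p under 0.05 over all genes tested), or 42.9%, against 24.9% of all genes called higher, 29.5% called lower and 54.3% called in either direction. For 2 of the 7 the ranges of CLP and Sham were apart, or 28.6%, against 49.5% of all genes. In RNA from sorted cells, a change in the share of cells that carry a transcript and a change in transcript per cell cannot be told apart.

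**Figure D1:**
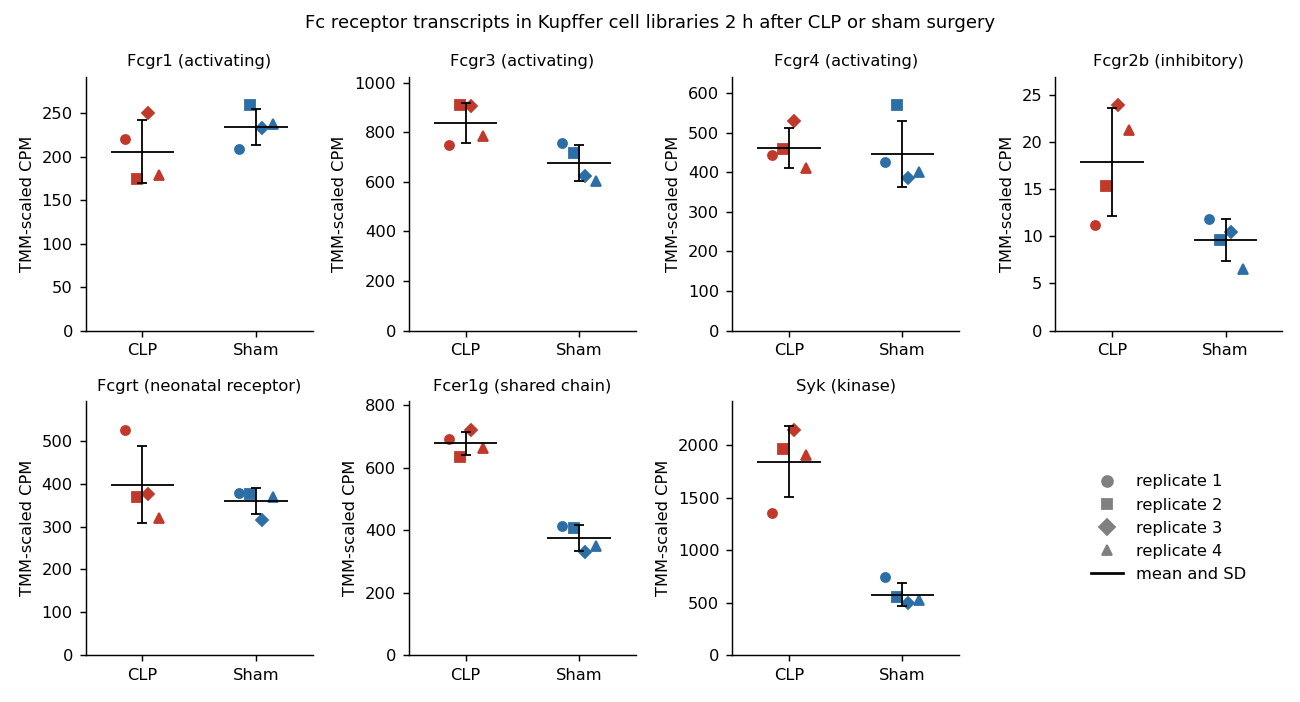
Level of each gene in TMM-scaled CPM (vertical axes, starting at 0) in the 4 CLP and 4 Sham libraries; symbols mark replicates, lines the mean and bars the SD. The groups are apart for Syk and Fcer1g, and overlap for the 4 Fc gamma receptors and Fcgrt.

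Levels were compared between genes per kb of exon. Of the 4 Fc gamma receptors, Fcgr3 was at 482 ± 47.4 CPM per kb in CLP and 389 ± 41.9 CPM per kb in Sham, and Fcgr4 at 367 ± 39.9 CPM per kb in CLP and 355 ± 66.7 CPM per kb in Sham (SD, n = 4). Their ranges did not overlap in CLP and overlapped in Sham. Fcgr1 was lower, at 79.5 ± 13.9 CPM per kb in CLP and 90.5 ± 8.01 CPM per kb in Sham. Fcgr2b was lowest by a wide margin, at 3.09 ± 0.995 CPM per kb in CLP and 1.66 ± 0.387 CPM per kb in Sham. As shares of the summed level per kb of the 4 receptors, Fcgr3 made up 51.8% in CLP and 46.6% in Sham, Fcgr4 39.4% in CLP and 42.3% in Sham, Fcgr1 8.53% in CLP and 10.9% in Sham, and Fcgr2b 0.331% in CLP and 0.199% in Sham. The activating receptors thus made up nearly all of this transcript pool in both groups.

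Among all 7 genes, Fcer1g headed the order in both groups, with 776 ± 43.3 CPM per kb in CLP and 429 ± 46.6 CPM per kb in Sham. In Sham its range overlapped that of Fcgr3, whereas in CLP it lay above every receptor. Syk stood in 4th place in CLP, at 197 ± 36.6 CPM per kb, and in 6th place in Sham, at 61.6 ± 11.97 CPM per kb. In CLP its range overlapped that of Fcgrt (189.5 ± 42.5 CPM per kb), and in Sham it lay below that of Fcgr1. With the longest transcript as the length, the Sham ranges of Syk and Fcgr1 overlapped.

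**Figure D2:**
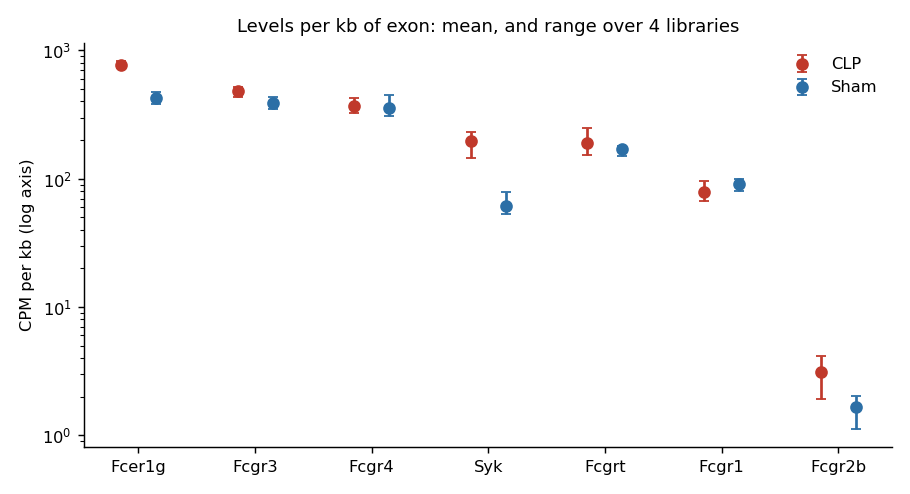
Mean level in CPM per kb of exon (vertical log axis) with the range over 4 libraries, for CLP (left of each pair) and Sham. Fcgr2b, at 3.09 in CLP and 1.66 in Sham, lies far below the activating receptors.

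Fcgr1 (ENSMUSG00000015947), the receptor that binds monomeric IgG, did not pass. Its CLP libraries held 220.3, 174, 249.9 and 179 CPM, and its Sham libraries 208, 259, 232 and 238 CPM. CLP replicates 2 and 4 lay below every Sham library, and CLP replicates 1 and 3 within the Sham range. Its log2 fold change of CLP over Sham was -0.19 ± 0.14 (SE, edgeR adjusted p = 0.27), a ratio of 0.878 (approximate 95% interval 0.71 to 1.09).

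Fcgr3 (ENSMUSG00000059498), a receptor for IgG complexes, came close to the threshold without passing it. It was at 749, 908, 906 and 785 CPM in CLP libraries and at 757, 714, 624 and 604 CPM in Sham libraries. Only CLP replicate 1 fell below the highest Sham library. The log2 fold change was 0.31 ± 0.13 (edgeR adjusted p = 0.056), a ratio of 1.24 (interval 1.02 to 1.5), and it passed without CLP replicate 1 (log2 fold change 0.36, edgeR adjusted p = 0.028).

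Fcgr4 (ENSMUSG00000059089), which binds IgG2a and IgG2b in the mouse, had 443, 459, 530.2 and 412 CPM in CLP libraries and 426, 569, 386 and 402 CPM in Sham libraries. The CLP values lay within the range of the Sham values, which held both the lowest and the highest library. Its log2 fold change was 0.05 ± 0.15 (edgeR adjusted p = 0.80), a ratio of 1.03 (interval 0.825 to 1.30). Neutrophils carry Fcgr3 and Fcgr4 as well. Of 10 neutrophil markers 8 were tested and all 8 were higher in CLP, against 24.9% of all genes. Ltf, Ngp, Cxcr2 and Retnlg were so scarce in Sham that they passed the filter through their CLP libraries, which partly fixes that count. S100a8 was at 51.9 ± 31.3 CPM in CLP, against 1.23 ± 0.473 CPM in Sham. The part of neutrophils in the Fcgr3 and Fcgr4 values was not tested.

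Fcgr2b (ENSMUSG00000026656), the ITIM receptor, rose. It was at 11.2, 15.3, 23.9 and 21.3 CPM in CLP libraries, from 268 to 522 counts, and at 11.8, 9.63, 10.5 and 6.54 CPM in Sham libraries, from 214 to 387 counts. CLP replicates 3 and 4 were the highest, and CLP replicate 1 lay below Sham replicate 1. The log2 fold change was 0.90 ± 0.25 (edgeR adjusted p = 0.012), with a 95% interval of the ratio of 1.27 to 2.74. The call was lost with scaling by total counts alone (log2 fold change 0.35, edgeR adjusted p = 0.24).

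Other measurements bear on the low Fcgr2b values. Of 8163 genes compared over the 8 libraries, the one whose log2 CPM was most like Fcgr2b was Clec4g. This lectin of liver sinusoidal endothelial cells had a Pearson r of 0.9852, or 0.989 over deviations from the group means. The Src family kinase Fgr was nearly level with it (r = 0.9846, or 0.967 over deviations), and 36 genes had r of at least 0.95. Clec4g had 17.4 ± 5.31 CPM in CLP, against 10.97 ± 2.83 CPM in Sham, and passed as higher by a small margin (edgeR adjusted p = 0.043). That call was lost in 6 of 8 fits that left out 1 library (edgeR adjusted p 0.051 to 0.12), with the replicate number as a block (0.07), with limma voom (0.055), with no filter (0.05), and with upper-quartile (0.077) or total-count scaling (0.7). The endothelial scavenger receptor Stab2 was at 293 ± 11.3 CPM in CLP, against 302 ± 13.9 CPM in Sham and did not pass, and Lyve1 was at 60.1 ± 6.61 CPM in CLP, against 55.4 ± 10.2 CPM in Sham. Kdr (24.4 ± 2.22 CPM in CLP, against 14.4 ± 3.75 CPM in Sham) and Ptprb (80.9 ± 15.8 CPM in CLP, against 48.5 ± 5.82 CPM in Sham) passed as higher. So did Cdh5 (1914 ± 231 CPM in CLP, against 1277 ± 140 CPM in Sham), while Lyve1, Oit3, Gpr182 and Egfl7 did not pass. In all, 4 of 9 endothelial markers were higher in CLP and 0 lower, against 24.9% and 29.5% of all genes. B cells, which carry Fcgr2b too, had 6 of 8 markers higher and 1 lower, against the same shares. Some of the B cell markers were so scarce in Sham that they were tested through their CLP libraries. The part of these cells in the Fcgr2b value was not tested.

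Fcgr2b and Fcgr3 also share sequence. Of the 50-base stretches of annotated Fcgr3 transcripts, 166 of 1733 (9.58%) occur unchanged in Fcgr2b transcripts, which is 2.92% of the Fcgr2b stretches. Fcgr1 and Fcgr4 share none with any annotated gene. How reads from shared stretches were assigned is not given in the sources used here. Fcgr2b counts amounted to 1.49% to 2.71% of the Fcgr3 counts in CLP libraries and 1.08% to 1.68% in Sham libraries, so the division of reads between these genes is uncertain for Fcgr2b.

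Ratios within a library do not depend on how libraries are scaled. The summed level per kb of the 3 activating receptors was 451, 361, 252 and 231 times that of Fcgr2b in CLP libraries and 419, 579.9, 419 and 673 times in Sham libraries. The ratio was lower in CLP on average, but CLP replicate 1 lay above Sham replicates 1 and 3. The mean log2 difference was -0.71, and taken singly the log2 differences were -1.07 for Fcgr1, -0.56 for Fcgr3 and -0.81 for Fcgr4 over Fcgr2b. Each of these ratios overlapped between the groups.

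The ratio of the activating receptors to the chain they need separated the groups. The summed level per kb of the 3 activating receptors was 1.10, 1.32, 1.26 and 1.12 times that of Fcer1g in CLP libraries and 1.82, 2.07, 2.00 and 1.90 times in Sham libraries. Every CLP library lay below every Sham library, with a mean log2 difference of -0.70. For Fcgr1 alone over Fcer1g the log2 difference was -1.06, again with no overlap.

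**Figure D3:**
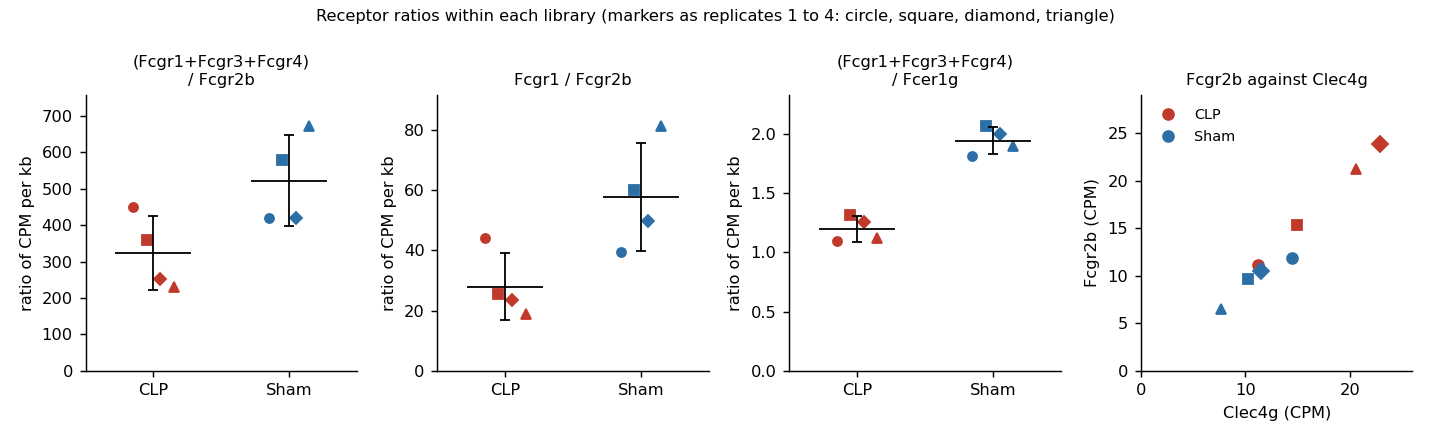
First 3 panels: ratio of levels per kb in each library, with the mean and SD of CLP and Sham; last panel: Fcgr2b against Clec4g in CPM in the 8 libraries. The activating receptors over Fcer1g do not overlap between the groups (1.10 to 1.32 in CLP, 1.82 to 2.07 in Sham), whereas the ratios over Fcgr2b do.

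Windows of 250 bases before the annotated start were read for all 7 genes from RefSeq (GRCm38.p6, an earlier assembly than that of the counts). They were searched on both strands for 3 motifs: the interferon-gamma activated site TTCNNNGAA, which reads the same on both strands, the core GAGGAA of sites for PU.1, a factor of macrophages and B cells, and the NF-kB consensus. The 4 windows below, of the 3 activating receptors and the inhibitory one, were chosen with the matches in view. Of the motifs, the activating windows share only the hexamer GAGGAA, which has no exact match in the Fcgr2b window. Looser forms of these sites were not searched for. Motif matches are in capitals.
Fcgr1 (chr3:96293970-96294219, minus strand): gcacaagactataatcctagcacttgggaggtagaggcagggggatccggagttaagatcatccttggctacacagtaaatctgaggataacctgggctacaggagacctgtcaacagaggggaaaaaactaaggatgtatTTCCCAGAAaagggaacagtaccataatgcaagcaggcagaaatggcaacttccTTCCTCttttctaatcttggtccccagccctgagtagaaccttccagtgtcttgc
Fcgr3 (chr1:171059404-171059653, minus strand): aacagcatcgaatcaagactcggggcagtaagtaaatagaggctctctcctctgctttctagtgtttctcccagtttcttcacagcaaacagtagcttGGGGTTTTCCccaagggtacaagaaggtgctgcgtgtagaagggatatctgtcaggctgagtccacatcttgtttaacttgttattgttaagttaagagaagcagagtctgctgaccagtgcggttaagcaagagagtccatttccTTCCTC
Fcgr4 (chr1:171018676-171018925, plus strand): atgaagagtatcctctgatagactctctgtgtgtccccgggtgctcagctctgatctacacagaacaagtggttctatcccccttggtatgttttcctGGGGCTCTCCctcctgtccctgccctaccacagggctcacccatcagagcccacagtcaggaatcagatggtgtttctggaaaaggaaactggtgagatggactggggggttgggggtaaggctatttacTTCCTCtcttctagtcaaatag
Fcgr2b (chr1:170976072-170976321, minus strand): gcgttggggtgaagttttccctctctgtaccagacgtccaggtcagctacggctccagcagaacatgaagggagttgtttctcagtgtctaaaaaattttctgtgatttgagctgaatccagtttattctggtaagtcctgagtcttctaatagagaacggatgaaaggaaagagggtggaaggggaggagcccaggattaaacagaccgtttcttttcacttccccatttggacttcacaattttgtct

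The PU.1 core, read as TTCCTC, lay 55, 6 and 22 bases before the start in Fcgr1, Fcgr3 and Fcgr4. It occurred in 23.3% of all 32851 promoter windows. The interferon-gamma activated site occurred as TTCCCAGAA in the Fcgr1 window, first base 109 before the start, and in 7.02% of all windows. The NF-kB consensus matched in Fcgr3 and Fcgr4 and in 3.9% of all windows. The windows of Fcgr2b, Fcgrt and Fcer1g held no match, and Syk held a GAGGAA in its downstream window only. Such matches are letters in a window and were not tied to any binding data.

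Fcer1g (ENSMUSG00000058715), the chain that carries the ITAM for all 3 activating receptors, rose. It was at 692, 634, 722 and 664 CPM in CLP libraries and 412, 408, 331 and 349.7 CPM in Sham libraries. The lowest CLP library lay well above the highest Sham library. The log2 fold change was 0.85 ± 0.12 (edgeR adjusted p = 1.4e-04), with an interval of the ratio of 1.51 to 2.16.

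Syk (ENSMUSG00000021457), the kinase that docks on the phosphorylated ITAM, had 1356, 1967, 2149.9 and 1909 CPM in CLP libraries and 742, 548, 494 and 522 CPM in Sham libraries. CLP replicate 1 was the lowest of its group and Sham replicate 1 the highest of its own, and the groups still did not overlap. Its log2 fold change of 1.68 ± 0.18 (edgeR adjusted p = 3.4e-05) gave a ratio of 3.20 (interval 2.42 to 4.23), and 6.61% of all genes tested had a larger log2 fold change. Syk and Fcer1g passed as higher under each scaling tried, that by total counts included (log2 fold changes 1.13 and 0.30). Platelets, which also carry both transcripts, had 5 of 6 markers higher in CLP, against 24.9% of all genes. Of these markers, Gp6 and Gp9 were tested through their CLP libraries. Pf4 was at 148 ± 36.4 CPM in CLP, against 18.1 ± 5.84 CPM in Sham. The part of platelets and neutrophils in the Syk and Fcer1g values was not tested.

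Fcgrt (ENSMUSG00000003420), which salvages IgG, was at 527, 370.0, 376 and 321 CPM in CLP libraries and 379, 377, 315 and 369.5 CPM in Sham libraries. CLP replicate 1 was far above the rest. The log2 fold change was 0.15 ± 0.16 (edgeR adjusted p = 0.45), a ratio of 1.11 (interval 0.87 to 1.41). Without CLP replicate 1 the log2 fold change was -0.02. B2m, the light chain of FcRn and of MHC class I, was at 2139 ± 169 CPM in CLP, against 1387 ± 201 CPM in Sham and passed as higher (log2 fold change 0.63 ± 0.13, edgeR adjusted p = 0.0026).

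Changes depended on the scaling, since the TMM factors were 0.801 to 0.837 in CLP and 1.16 to 1.28 in Sham. Scaling by total counts alone shifted the median log2 fold change by -0.55, and of the genes called it left 17.1% higher, in place of 45.8%. On that scale Fcgr1 passed as lower (-0.74), as did Fcgr4 (-0.50) and Fcgrt (-0.40), and Fcgr3 turned negative without passing (-0.24, edgeR adjusted p = 0.065). A scaling moves all genes by nearly the same amount, so the order of the changes, with Syk highest and Fcgr1 lowest, was common to all 4 scalings.

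**Figure D4:**
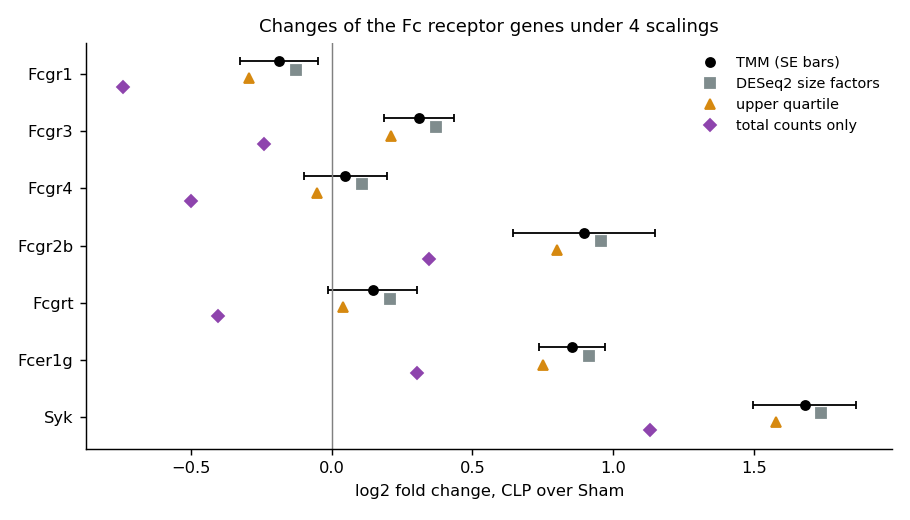
Log2 fold change of CLP over Sham (horizontal axis) of the 7 genes under TMM scaling, with bars for the SE, and under DESeq2 size factors, upper-quartile and total-count scaling. Syk, Fcer1g and Fcgr2b lie above 0 in each, and Fcgr1 lies below 0 in each.

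Fcgr2b, Fcgr4, Fcgr3 and Fcer1g lie in this order in a cluster on mouse chromosome 1. Of the 11 protein-coding genes from Fcgr2b to Fcer1g in the annotation, 9 were tested, and 2 of these, Fcgr2b and Fcer1g, were called, where 54.3% of all genes tested were called in either direction. Between Fcgr3 and Fcer1g stand 7 genes, of which 5 were tested and 0 passed. The nearest of these to the threshold was Sdhc, a subunit of succinate dehydrogenase, at 63.7 ± 6.71 CPM in CLP, against 53.1 ± 6.14 CPM in Sham (edgeR adjusted p = 0.083).

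The genes most like each of the other 6 over the 8 libraries were found in the same way, and the values of r are descriptions of libraries that share a group, a depth and a scaling. For Syk they were Cpd, a carboxypeptidase, at 375 ± 81.7 CPM in CLP, against 73.9 ± 18.0 CPM in Sham (r = 0.999), and the carbonic anhydrase Car13 (r = 0.997), among 1004 genes with r of at least 0.95. Fcer1g was followed most closely by Nip7, a ribosome biogenesis factor (r = 0.996), and the taurine transporter Slc6a6 (r = 0.995). For Fcgr3 they were the carboxylesterase Ces3b (r = 0.995) and the ubiquitin-conjugating enzyme Ube2q2 (r = 0.985), and for Fcgrt Unc93b1, a chaperone of endosomal Toll-like receptors (r = 0.985), and the calcineurin subunit Ppp3ca (r = 0.984). Fcgr1 and Fcgr4 had no gene at 0.95: the nearest were Gfra2 (r = 0.94) and Tmem219 (r = 0.929) for Fcgr1, and the liver transcripts Apof (r = 0.922) and Rdh7 (r = 0.917) for Fcgr4. For Fcgr2b, next to Clec4g, it was the Src family kinase Fgr (r = 0.985). Among the 7 genes, Syk was most like Fcer1g (r = 0.961, or 0.435 over deviations from the group means) and Fcgr3 (r = 0.885, or 0.823 over deviations).

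Downstream of the receptors, 116 further genes in 7 lists were examined, of which 107 were tested. Of these, 60 rose (56.1%) and 13 fell (12.1%), against 24.9% and 29.5% of all genes. The lists were chosen with earlier results of these data known, so these shares are partly fixed by the choice. Some of the 60, such as Lck, Gp6, Fcmr and Fcer2a, were tested through their CLP libraries. With a filter at a mean of 1 CPM 55 rose. With total-count scaling 26 rose (24.3%) and 44 fell (41.1%), against 11.7% and 56.6% of all genes. The median log2 fold change over the 107 genes was 0.42, and that over all genes -0.04. Genes named below that are not among the smallest p-values of their list were picked with their values in view.

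All 7 Src family kinases, which phosphorylate the ITAM, rose, against 24.9% of all genes. With total-count scaling 4 of 7 rose, against 11.7% of all genes. Lyn, an abundant member in macrophages, was at 1814 ± 119 CPM in CLP, against 891 ± 115 CPM in Sham, a log2 fold change of 1.03 ± 0.13 (edgeR adjusted p = 7.9e-05). Fgr was at 459.9 ± 162 CPM in CLP, against 208 ± 59.4 CPM in Sham, with overlapping groups. Lck, a kinase of T and NK cells, was at only 2.74 ± 0.834 CPM in CLP, against 0.249 ± 0.141 CPM in Sham, and being so near 0 in Sham, it passed the filter on low counts through its CLP libraries. The list's median log2 fold change was 1.03.

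Signalling brakes went both ways, much as all genes did. Of 14, 5 were higher (35.7%) and 4 lower (28.6%), against 24.9% and 29.5% of all genes. Their median log2 fold change was 0.04, and that of all genes -0.04. With total-count scaling 1 was higher and 10 lower, against 11.7% and 56.6% of all genes. Without CLP replicate 3, Sham replicate 2 or Sham replicate 4, 3 were higher in place of 5, as with upper-quartile scaling or no filter. Lower were the adaptor Dok3 (38.9 ± 7.75 CPM in CLP, against 79.0 ± 8.26 CPM in Sham), Csk, which keeps Src kinases inactive (99.5 ± 22.8 CPM in CLP, against 184 ± 6.18 CPM in Sham), and the phosphatases Ptpn6 and Ptpn22. Higher were the phosphatase Ubash3b (79.1 ± 33.4 CPM in CLP, against 23.6 ± 4.61 CPM in Sham), the inositol phosphatase Inppl1 (155 ± 34.1 CPM in CLP, against 90.6 ± 16.5 CPM in Sham), Cblb, Dok2 and Ptpn11. Inpp5d (SHIP-1) is the main phosphatase that the ITIM of Fcgr2b recruits. It was at 279 ± 92.2 CPM in CLP, against 275 ± 5.54 CPM in Sham, and was not called (edgeR adjusted p = 0.95). Its CLP libraries held 410, 272, 200 and 234 CPM, and its Sham libraries 275, 278, 281 and 268 CPM. CLP replicate 1 thus lay above every Sham library and CLP replicates 3 and 4 below.

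Of 26 membrane-proximal effectors tested, 13 rose (50%) and 3 fell (11.5%), against 24.9% and 29.5% of all genes (median log2 fold change 0.41). With total-count scaling 5 rose and 11 fell, against 11.7% and 56.6% of all genes. Without CLP replicate 1, 5 fell. The 13 include the scarce Lat2 (1.09 ± 0.32 CPM in CLP, against 0.513 ± 0.203 CPM in Sham), which passed the filter with the help of its CLP libraries. With a filter at a mean of 1 CPM 12 rose. The adaptor complex that links Syk to NF-kB was split: Malt1 was at 362 ± 122 CPM in CLP, against 33.4 ± 3.61 CPM in Sham, and Bcl10 at 145 ± 10.1 CPM in CLP, against 61.9 ± 8.66 CPM in Sham, while Card9 fell, at 9.43 ± 0.887 CPM in CLP, against 16.2 ± 2.12 CPM in Sham. The kinase Btk also fell, at 49.4 ± 4.06 CPM in CLP, against 70.4 ± 0.432 CPM in Sham, as did Plcg1.

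Of 32 genes of the phagocytic cup and its actin, 19 rose (59.4%) and 4 fell (12.5%), against 24.9% and 29.5% of all genes. Their median log2 fold change was 0.58. With total-count scaling 7 rose and 14 fell, against 11.7% and 56.6% of all genes. Marcksl1, an actin-binding substrate of protein kinase C, was at 3015 ± 286 CPM in CLP, against 422 ± 219.8 CPM in Sham, where replicate 1 held 739.99 CPM and the others 241 to 384 CPM. Its relative Marcks was at 2387 ± 162 CPM in CLP, against 948 ± 178 CPM in Sham. The phospholipase Pld1 was lower, at 56.9 ± 14.3 CPM in CLP, against 153 ± 29.7 CPM in Sham, as were Wipf1, a partner of the Wiskott-Aldrich protein (71.5 ± 30.6 CPM in CLP, against 193 ± 16.5 CPM in Sham), Limk1 and Pld2.

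The FcR gamma chain also serves other receptors. Of 6 such partners tested 4 rose and 0 fell, against 24.9% and 29.5% of all genes, with a median log2 fold change of 3.06. With total-count scaling 4 rose and 1 fell, against 11.7% and 56.6% of all genes. Gp6, the platelet collagen receptor, counts among these and passed the filter only through its CLP libraries, and with a filter at a mean of 1 CPM 3 partners rose. The lectins Clec4d was at 113 ± 26.4 CPM in CLP, against 6.43 ± 3.27 CPM in Sham, Clec4n (Dectin-2) at 613 ± 126 CPM in CLP, against 154 ± 24.3 CPM in Sham, and Clec4e, the receptor Mincle, was at 521 ± 137 CPM in CLP, against 8.23 ± 8.03 CPM in Sham. Gp6 was at 1.62 ± 0.87 CPM in CLP, against 0.077 ± 0.0721 CPM in Sham.

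Of 15 other ITIM receptors 8 rose (53.3%) and 0 fell, against 24.9% and 29.5% of all genes (median log2 fold change 0.38). With total-count scaling 3 rose and 6 fell, against 11.7% and 56.6% of all genes. Without Sham replicate 4 only 5 rose, and 3 fell without CLP replicate 1, 2 with the replicate number as a block and 1 without Sham replicate 3. Milr1 (Allergin-1) was at 118 ± 29.2 CPM in CLP, against 29.5 ± 3.4 CPM in Sham, and the lectin Clec12a at 457 ± 21.8 CPM in CLP, against 224 ± 31.4 CPM in Sham. Of 13 genes of other immunoglobulin receptors, B2m among them, 6 were below the filter. Of the 7 tested 4 rose and 2 fell, against 24.9% and 29.5% of all genes. Fcmr and Fcer2a were tested only through their CLP libraries, and the count of higher genes was 1 with a filter at a mean of 1 CPM. With total-count scaling that count was 2, against 11.7% of all genes. Fcmr, for IgM, was at 1.32 ± 0.0329 CPM in CLP, against 0.147 ± 0.0821 CPM in Sham, and Fcer2a, for IgE, at 0.974 ± 0.215 CPM in CLP, against 0.198 ± 0.104 CPM in Sham. Both are B cell genes, as are Fcrla, which also rose, and Fcrl1, which fell, at 8.6 ± 1.31 CPM in CLP, against 16.4 ± 2.43 CPM in Sham. Trim21, the cytosolic Fc receptor, also fell, at 18.1 ± 6.1 CPM in CLP, against 31.4 ± 2.76 CPM in Sham.

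**Figure D5:**
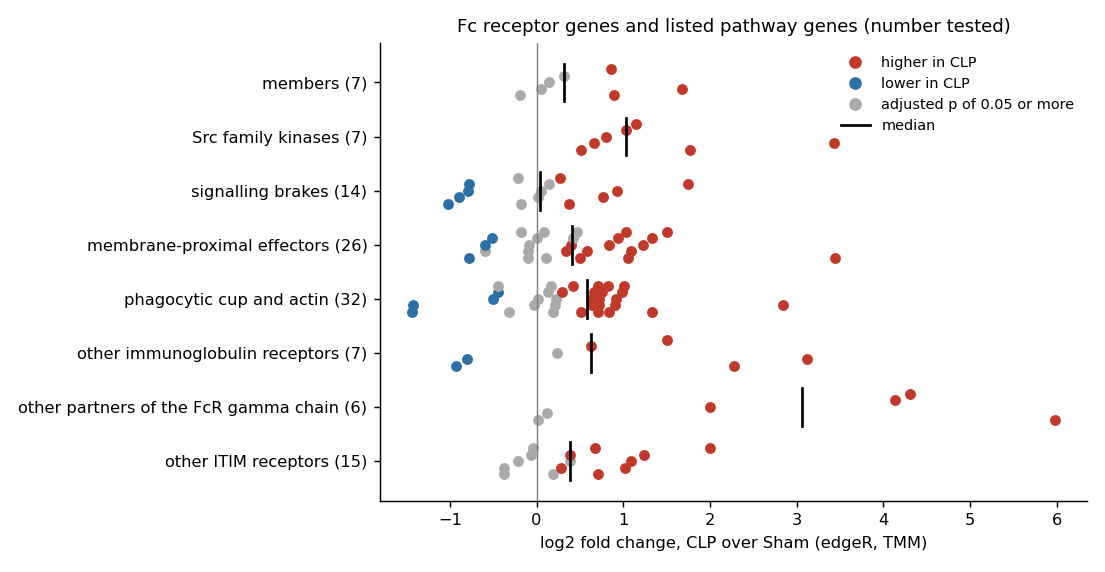
Log2 fold change of CLP over Sham (horizontal axis) of the 7 Fc receptor genes and of the tested genes in 7 lists (rows); each point is a gene, coloured by call, and the line is the row's median. All 7 Src family kinases lie on the higher side, and the signalling brakes spread on both sides of 0.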

How the data were processed

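Libraries came from an Illumina TruSeq stranded kit and were read on an AVITI instrument, per the labels' protocols. The authors deposited raw read counts per Ensembl gene, and FastQC, STAR 2.7.10b, featureCounts, DESeq2 and mm39 are named in the submitters' processing notes. The annotation release, the strand setting and the treatment of multi-mapping reads are not stated in the sources used here. Whether the libraries are of different mice is not stated either, and p-values then reflect spread among libraries that may be technical.

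Genes of the deposited count table that filterByExpr kept were tested in edgeR 4.0.16 under R 4.3.3 (TMM scaling, robust quasi-likelihood F-test on surgery), with Benjamini-Hochberg adjustment over 14655 genes and a threshold of 0.05. SEs are the absolute log2 fold change over the square root of F, and 95% intervals use the t quantile of the fit. The script was tested on simulated data. Alternatives used DESeq2 1.42.0 and limma 3.58.1. Symbols, lengths and transcripts came from GENCODE M21 (52133 IDs matched, all 196 list entries found), and promoters from RefSeq. Named genes were the 7 members, the 2 smallest p-values per direction in each list, and the 2 genes with the highest r of log2 CPM for each member, with a mean of 10 CPM or more in either group. The members and lists were chosen with earlier results of these data known. Protein motifs were not analysed here.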

Additional observations from a re-analysis of the deposited data

Results flagged for a closer look

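In 118 groups of 4 values examined, 7 held a library whose gap to its neighbour took up more than 0.829 of the group's range, and chance gives about 1 in 20. Fcgrt was at 315 CPM in Sham replicate 3 and at 369.5 to 379 CPM in the other Sham libraries. In CLP replicate 1, Lck was at 1.5 CPM, against 3.04 to 3.30 CPM in the other CLP libraries, Wipf1 at 117 CPM, against 53.2 to 57.8 CPM, and Cpd at 254 CPM, against 403 to 434 CPM. Cpd was also apart in Sham replicate 1, at 101 CPM, against 63.0 to 68.8 CPM in the other Sham libraries. Summed platelet markers were 119 CPM in CLP replicate 3, against 182 to 193 CPM in the rest of CLP. Summed mast cell and basophil markers were 0.0611 CPM in Sham replicate 1 and 0 in the other Sham libraries.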

How the results depend on the processing

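Syk and Fcer1g kept their direction and call under all alternatives run. Total-count scaling moved the calls to 1715 higher and 8292 lower, against 3644 and 4319, and the pathway genes to 26 and 44, against 60 and 13. It lost Fcgr2b (log2 fold change 0.35), called Fcgr1 (-0.74), and reversed Fcgr3 (-0.24), Fcgr4 (-0.50), Fcgrt (-0.40), Ube2q2 (-0.031), Apof (-0.28), Rdh7 (-0.49), Unc93b1 (-0.41) and Ppp3ca (-0.45). It also lost the calls of Inppl1 (0.21), Ces3b (0.056), Clec4g (0.11), Fgr (0.59) and Slc6a6 (0.25), and called Gfra2 (-0.93) and Tmem219 (-0.68). That setting leaves out the TMM factors, and what the shift between these scalings reflects was not tested. Fcgr3 passed with DESeq2 size factors (0.37), DESeq2 (0.37), voom (0.31) and a filter at a mean of 1 CPM (0.31), and the cause was not tested. Upper-quartile scaling reversed Fcgr4 (-0.054), Rdh7 (-0.043) and Ppp3ca (-0.0056), and no filter reversed Fcgr4 (-0.0074).

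Leaving out 1 library at a time gave log2 fold changes of 0.27 to 0.39 for Fcgr3, -0.021 to 0.20 for Fcgr4, and -0.017 to 0.24 for Fcgrt. Fcgr3 passed without CLP replicate 1 or Sham replicate 1, and Fcgr4 was negative without CLP replicate 3 or Sham replicate 3. Pathway genes called lower numbered 13 to 20, the highest without CLP replicate 1. The log2 difference of activating over inhibitory receptor lay between -0.89 and -0.57. Values ran from -0.030 to 0.21 for Rdh7, negative without CLP replicate 3 (-0.0087) or Sham replicate 3, and from -0.050 to 0.20 for Ppp3ca, negative without CLP replicate 1. With the replicate number as a block, 7794 genes were called, in place of 7963, and each of the 7 members kept its call. Deviations of same-numbered libraries correlated at 0.172, -0.125, 0.126 and -0.0853, and no CLP library correlated best with the Sham library of its own number. The low counts of Fcgr2b, 214 to 522 per library, limit its precision.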
